A study of Arabidopsis thaliana with 36 samples.

Results

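The Arabidopsis thaliana line jub1 was compared with the wild type Col0 over 4 temperature conditions. Total RNA was extracted from whole rosettes, and sequencing was done on the BGISEQ-500 platform. All 12 libraries labelled jub1 and all 12 labelled Col0 were taken, 24 of the 36 libraries of the series; the other 12 come from the line mbf1c, named for the stress-related coactivator MBF1C. Plants of 28 days at 20 °C by day and 16 °C by night, 200 µE and 16 h of light were harvested before cold (NonA) or after 3 days at 4 °C and 90 µE (ACC), so that temperature and light changed together. The remaining rosettes were harvested 2 days (Deacc2) or 4 days (Deacc4) after return to the warm regime. Each of the 8 groups of line and condition held 3 libraries, numbered as Exp 1 to 3. The labels give jub1 by its name only, with neither allele nor background, and place 10 plants in a pot without saying how many rosettes made up a library or whether libraries came from separate pots. The p-values therefore measure the spread between these samples, which may be technical.

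The line is named for JUB1 (JUNGBRUNNEN1, AT2G43000, also NAC042), a transcription factor of the plant-specific NAC family. JUB1 responds to hydrogen peroxide and is known in Arabidopsis as a brake on leaf senescence. It is reported to repress GA3OX1 and DWF4, which make gibberellin and brassinosteroid, as well as PIF4, a growth-promoting bHLH factor, and to activate the stress regulator DREB2A and the DELLA growth repressors GAI and RGL1. Cold acclimation is the gain of freezing tolerance at low temperatures above freezing, and deacclimation is its loss after return to warmth.

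Gene counts ran from 15230460 to 63178347 per library, and 20421 genes passed the filter on low counts. The first principal component held 52.6% of the variance and the second 20.6%. Summed levels of 8 floral organ markers were 0.743 to 3.21 CPM, which is counts scaled to library size, in Col0 and 0.495 to 1.87 in jub1, and those of 8 root markers 7.18 to 83.8 and 6.78 to 57.9 CPM. The root sum came almost wholly from PYK10, with a median of 29.1 and a maximum of 83.3 CPM over the 24 libraries. The next highest root marker, WOX5, reached 0.989 CPM, and PLT1 and RHD6 were at 0 in all 24 libraries. The 22 photosynthesis genes summed to 40749 to 227426 CPM in Col0 and 41671 to 284998 CPM in jub1. The jub1 NonA library of replicate 1 stood apart from the other 11 jub1 libraries in AT3G22235, 1 of the most changed genes. In AT2G06995, another of them, it was also the highest jub1 library, with a log2 difference of -0.02 from the Col0 library of its pair. The counts of called genes in the lists are given with and without this jub1 library. Over all genes, 1342 were called with it and 537 without it.

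JUB1 itself was lower in jub1 at each condition. In Col0 at NonA its level was 3.96, 5.65 and 2.81 CPM in replicates 1 to 3, against 0.789, 0.486 and 0.610 CPM in jub1. At ACC the Col0 libraries held 0.509, 0.727 and 1.46 CPM and the jub1 libraries 0.364, 0.409 and 0.433 CPM. Both lines were thus low in the cold, and the gap between them was narrowest there. At Deacc2 the levels were 6.40, 8.32 and 10.95 CPM in Col0 and 1.22, 0.908 and 1.32 CPM in jub1. At Deacc4 they were 2.49, 7.41 and 7.37 CPM in Col0 and 1.23, 1.49 and 0.541 CPM in jub1. The 3 libraries of jub1 lay below the 3 of Col0 at all 4 conditions, and JUB1 was lower in 12 of 12 pairs of the same condition and Exp number. Averaged over the conditions the log2 difference was -2.31 ± 0.24 (SE), with an adjusted p of 6.5e-06 (edgeR quasi-likelihood test, Benjamini-Hochberg adjustment over all genes). In whole rosettes, fewer cells expressing a gene and less RNA of it per cell cannot be told apart. Of the exonic bases of JUB1, 7.78% overlap AT2G42990, which runs on the other strand and whose own log2 difference was 0.36 with an adjusted p of 0.370.

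**Figure D1:**
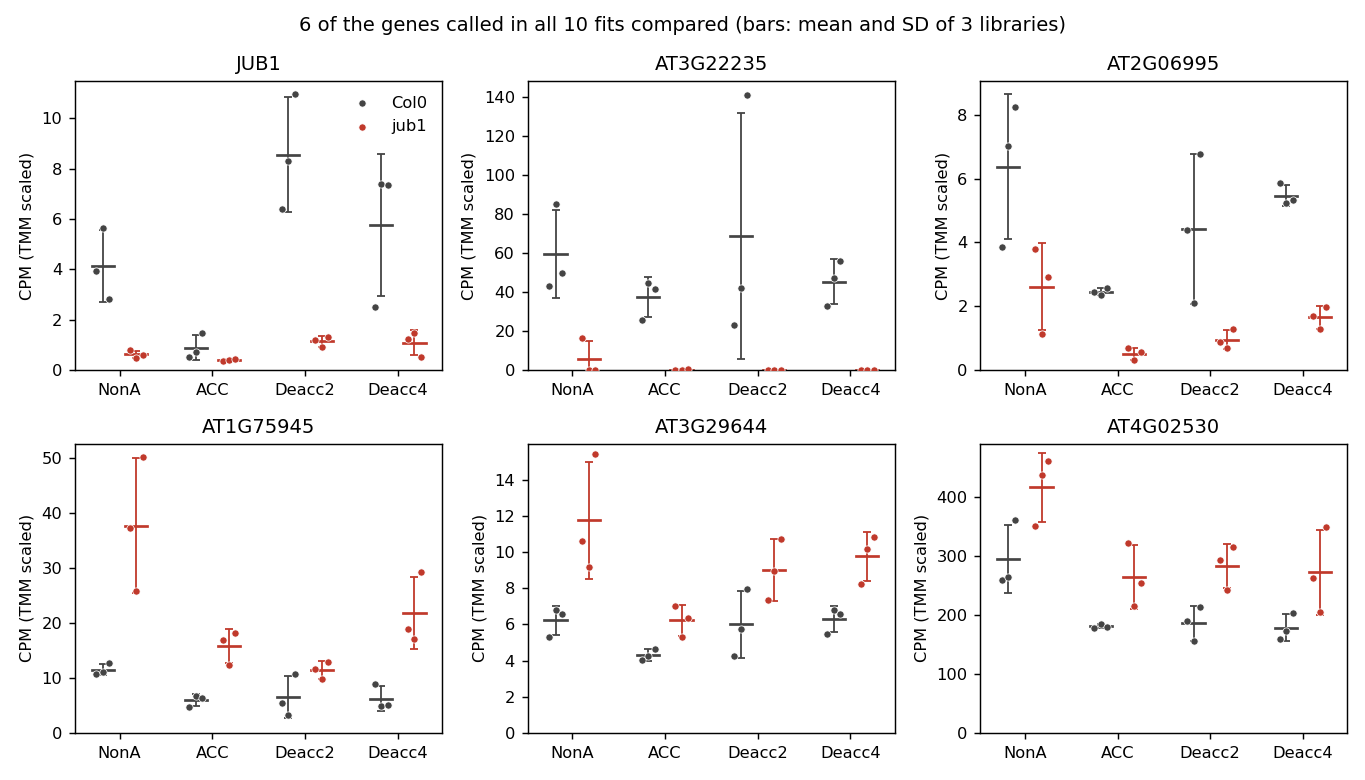
CPM after TMM scaling of JUB1 and 5 other genes in the 24 libraries, by condition (x axis) and line (dark grey Col0, red jub1); each point is a library, and bars give the mean and SD of 3. JUB1 was lower in jub1 in 12 of 12 pairs, and AT3G22235 was near 0 in 11 of the 12 jub1 libraries, with the replicate 1 library at NonA at 16.7 CPM.

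Over the 4 conditions, 1342 of the 20421 genes differed between the lines at an adjusted p under 0.05 (edgeR, with condition, Exp number and line as terms), which is 6.57% of the genes tested. Of these, 492 (2.41%) were higher and 850 (4.16%) lower in jub1. Most differences were small: the median absolute log2 difference of the called genes was 0.45, and 16 genes rose and 53 fell by at least 2-fold. In 120 of the called genes the direction was the same in 12 of 12 pairs. The number of calls rested on the Exp number being in the model: without it 13 genes were called (0.0637%), 6 higher (0.0294%) and 7 lower (0.0343%), all of them among the 1342. With all 36 libraries in the fit 29 genes were called, and with a correction for transcript length 257 (1.26%).

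A smaller set of 10 genes was called in the fit as designed and in each of 9 alternatives, among them those without the Exp number, with all 36 libraries and with the length correction. This set was defined after the counts had been seen. It held JUB1, AT3G22235, AT2G06995, AT2G05914 and PXMT1, which were lower, and AT1G75945, AT3G29644, AT3G05955, AT4G02530 and AT2G05665, which were higher; AT4G02530 and AT2G05665 fall outside the naming rule and are named because they belong to it. Each of the 10 was also called in 24 of 24 fits that left out a single library. Over all 17 fits compared in full, 8 of them were called in 17, PXMT1 in 15 and AT2G05665 in 13; PXMT1 was not called without replicate 3 or without NonA, and AT2G05665 not without replicate 1 or 3 or without NonA or ACC. By chromosome, 4 lie on 2, 3 on 3, 2 on 1 and 1 on 4. 5 are annotated as long non-coding RNAs (lncRNAs), a class that made up 322 of the genes tested. Of these 322, 6 were called higher and 4 lower, against 2.41% and 4.16% of all genes.

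AT3G22235, which encodes a cysteine-rich transmembrane module (CYSTM) stress tolerance protein, showed the widest gap. Its level in Col0 was 43.4, 85.2 and 49.9 CPM at NonA, 25.6, 44.7 and 41.7 at ACC, 23.3, 42.4 and 141 at Deacc2, and 33.0, 47.4 and 56.0 at Deacc4. In jub1, replicate 1 at NonA held 16.7 CPM, from 720 counts, and the other 11 libraries 0.0455 to 0.618 CPM. No jub1 library reached the lowest Col0 library. The log2 difference was -6.58 ± 0.78 (adjusted p = 5.33e-05, edgeR), and -8.46 without the jub1 NonA library of replicate 1 (adjusted p = 3.42e-15, edgeR). Its annotated transcript is 97.8% identical over 367 of 687 bases to that of PCC1 (pathogen and circadian controlled 1, AT3G22231). Reads that match both equally count as multimapping and enter neither gene, so the values of AT3G22235 are uncertain. PCC1 itself had 130 to 567 CPM in Col0 and 271 to 496 CPM in jub1, a log2 difference of 0.39 ± 0.19 that was not called (adjusted p = 0.181, edgeR).

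AT2G06995, an lncRNA, was lower in jub1 in 12 of 12 pairs, with a log2 difference of -1.86 ± 0.18 (adjusted p = 6.5e-06, edgeR). Its Col0 libraries held 3.86, 7.01 and 8.25 CPM at NonA and 2.35 to 2.58 CPM at ACC; the jub1 libraries held 3.80, 1.12 and 2.91 CPM and 0.318 to 0.681 CPM. The groups did not overlap at any condition, but at NonA the replicate 1 pair, 3.86 and 3.80 CPM, was nearly level. The other 11 jub1 libraries held at most 2.91 CPM. Without the jub1 NonA library of replicate 1 the log2 difference was -1.96. AT2G05914, another lncRNA, was at 0.508 to 2.01 CPM in Col0 and at 0 to 0.481 CPM in jub1, again with no overlap at any condition (log2 difference -2.63 ± 0.31, adjusted p = 4.35e-05, edgeR). Of its exonic bases 24.7% lie opposite another gene, from which unstranded counts cannot separate it. PXMT1, a methyltransferase of the SABATH family that methylates small molecules, had a median of 10.8 CPM in Col0 and 4.02 CPM in jub1 (log2 difference -1.30 ± 0.20, adjusted p = 0.00289, edgeR). It was lower in 10 of 12 pairs, with groups that did not overlap at NonA and Deacc2.

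Of the 5 genes that were higher, AT1G75945, an uncharacterized protein, had the lowest adjusted p (6.5e-06, edgeR; log2 difference 1.43 ± 0.15). Its levels in Col0 were 10.7, 11.1 and 12.6 CPM at NonA, 4.69, 6.71 and 6.37 at ACC, 5.45, 3.30 and 10.8 at Deacc2, and 8.81, 4.91 and 4.99 at Deacc4. In jub1 they were 37.2, 25.7 and 50.2 CPM at NonA, 16.9, 12.3 and 18.2 at ACC, 11.5, 9.83 and 12.9 at Deacc2, and 18.9, 17.1 and 29.3 at Deacc4. Groups overlapped only at Deacc2, through 1 Col0 library. AT4G02530, a thylakoid lumen protein of the chloroplast, ranged from 155 to 360 CPM (median 186) in Col0 and from 205 to 460 CPM (median 303) in jub1, and was higher in 12 of 12 pairs (log2 difference 0.56 ± 0.08, adjusted p = 0.00134, edgeR). The lncRNA AT3G29644 was likewise higher in 12 of 12 pairs, at 4.04 to 7.94 CPM in Col0 and 5.31 to 15.4 CPM in jub1 (log2 difference 0.67 ± 0.09, adjusted p = 0.000574, edgeR); 31.3% of its exonic bases lie opposite another gene. The other members, the lncRNAs AT3G05955 (log2 difference 1.80, 12 of 12 pairs) and AT2G05665 (1.55, 11 of 12 pairs), had medians under 1 CPM in both lines.

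A list of 10 genes linked to JUB1, which holds the targets named above, was examined next. GA3OX1, which makes the last step to active gibberellin, and DWF4, which catalyses the rate-limiting step of brassinosteroid synthesis, were called as higher in jub1. Over all genes 2.41% were called higher, and none of the other 8 listed genes was called. GA3OX1 was at 16.5, 10.2 and 16.5 CPM in Col0 at NonA and at 23.7, 13.8 and 17.99 CPM in jub1; at Deacc4 it was at 5.30, 5.59 and 7.16 CPM in Col0 and at 13.2, 7.46 and 18.05 CPM in jub1. Groups were separate at Deacc2 and Deacc4 and overlapped at NonA and ACC. The log2 difference was 0.48 ± 0.15 (adjusted p = 0.0483, edgeR; higher in 11 of 12 pairs). DWF4 was at 8.85, 9.27 and 12.3 CPM in Col0 at NonA and 14.3, 18.8 and 17.6 CPM in jub1, where the groups were separate, and overlapped at the other conditions. Its log2 difference was 0.47 ± 0.13 (adjusted p = 0.0373, edgeR; higher in 10 of 12 pairs). Both calls were marginal: neither held without the Exp number (adjusted p = 0.167 for GA3OX1 and 0.141 for DWF4, edgeR) or with all 36 libraries, DWF4 held with the length correction and GA3OX1 did not, and of 24 fits without a single library GA3OX1 was called in 7 and DWF4 in 15. Without the jub1 NonA library of replicate 1, 1 of the 10 listed genes was called higher.

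**Figure D2:**
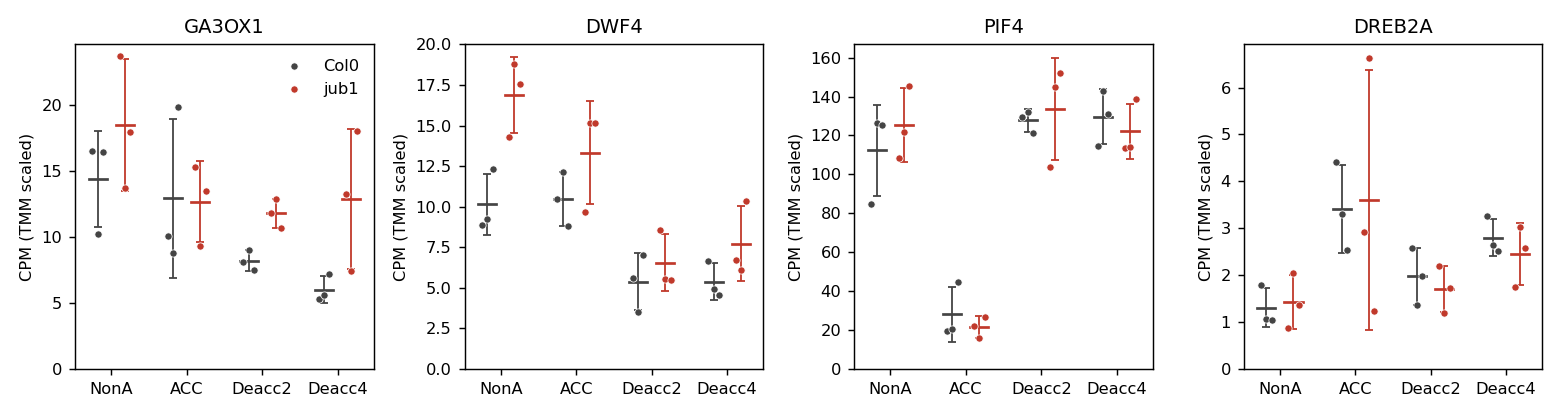
CPM after TMM scaling of GA3OX1, DWF4, PIF4 and DREB2A in the 24 libraries by condition (x axis) and line (dark grey Col0, red jub1), with the mean and SD of 3 libraries. GA3OX1 groups are separate at Deacc2 and Deacc4 and DWF4 groups at NonA, while PIF4 and DREB2A overlap at each condition.

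PIF4 had a median of 123 CPM in Col0 and 114 CPM in jub1, with a log2 difference of -0.06 ± 0.11 (adjusted p = 0.764, edgeR) and 6 of 12 pairs higher. DREB2A had medians of 2.52 and 1.89 CPM (log2 difference -0.07 ± 0.20). GAI differed by -0.00 ± 0.08 on the log2 scale and RGL1 by 0.25 ± 0.10 (adjusted p = 0.0983, edgeR). The other members of the list, not among the targets named above, were not called either. They were the brassinosteroid response factor BZR1 (0.01 ± 0.10), the homeodomain factor ATHB13 (-0.05 ± 0.11), the heat shock factor HSFA3 (-0.20 ± 0.22) and the cold-inducible LTI78, also RD29A (0.13 ± 0.20). The groups of these 8 genes overlapped at each of the 4 conditions. Apart from GA3OX1, 1 more of the 25 gibberellin genes tested was called, GA3OX2, a second gibberellin 3-oxidase (log2 difference 0.76 ± 0.20, adjusted p = 0.0326, edgeR), at a mean of 0.497 CPM in Col0 and 0.738 CPM in jub1. GA3OX2 was not called without the Exp number, with all 36 libraries or with the length correction (adjusted p = 0.122, 0.0787 and 0.0618, edgeR), and without the jub1 NonA library of replicate 1 none of the 25 gibberellin genes was. DWF4 was the 1 called member of 17 brassinosteroid genes, and 1 was called without that library. The 2 of 25 gibberellin and 1 of 17 brassinosteroid genes stand against 2.41% called higher over all genes.

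The rule for naming took, from the called genes that averaged 2 CPM or more in at least 1 line, the 12 largest differences in each direction. After AT1G75945, the largest rise was that of XTH31, a xyloglucan-modifying enzyme of the cell wall. XTH31 ranged from 7.28 to 223 CPM (median 48.4) in Col0 and from 10.0 to 364 CPM (median 144) in jub1. It was higher in 12 of 12 pairs but overlapped between lines at each condition (log2 difference 1.20 ± 0.33, adjusted p = 0.0380, edgeR), and the widest pair, replicate 3 at Deacc4, was 10.3 against 215 CPM. AT1G24580, a RING/U-box protein (1.01), AT5G55570, an uncharacterized protein (0.94), and AT3G49300, a proline-rich protein (0.87), followed. The other 7 risers, at log2 differences of 0.71 to 0.80, were AT2G36885, AT4G13577, AT1G01250, MES18, AT3G01795, AT5G62210 and CYP78A7.

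After AT3G22235 and JUB1, the largest fall was that of AT4G10860, an uncharacterized protein with a median of 3.99 CPM in Col0 and 0.376 CPM in jub1 (log2 difference -1.90 ± 0.35, adjusted p = 0.0111, edgeR; lower in 10 of 12 pairs). AT1G68620, an alpha/beta hydrolase, was lower in 12 of 12 pairs, from a median of 4.13 to 1.30 CPM (-1.41 ± 0.23, adjusted p = 0.00309, edgeR). AT1G26390, of the berberine bridge enzyme family, fell by 1.49 on the log2 scale, from a median of 8.64 to 2.51 CPM. SBT3.3, a subtilisin-like protease known for a part in immune priming, fell by 1.34 and was lower in 11 of 12 pairs. The rest were AT2G44240 (-1.59), AATP1, an AAA-type ATPase (-1.33), AT1G33950 of the avirulence-induced AIG1 family (-1.27), and the glutamate receptor gene ATGLR1.2 (-1.22), besides AT2G06995 and PXMT1. Of the 24 genes, those outside the set of 10 were called in 5 to 15 of the 17 fits compared in full, of which AT1G68620 had 15.

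**Figure D3:**
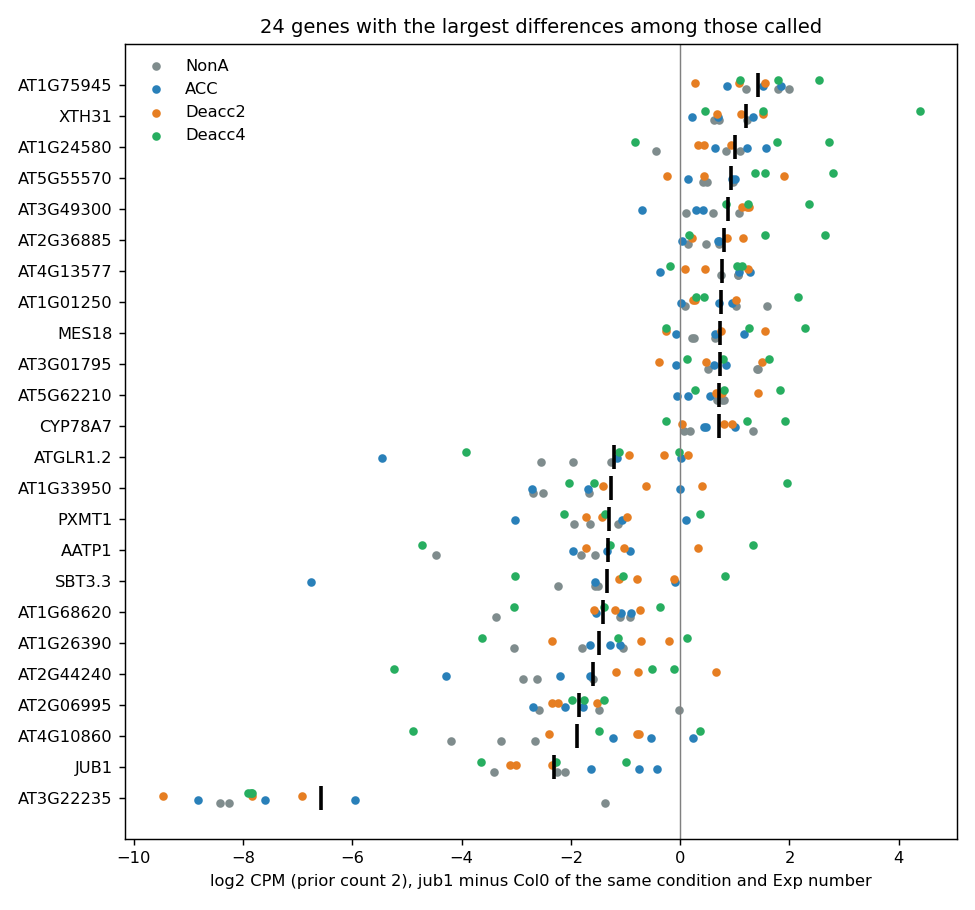
Log2 difference in CPM (prior count 2), jub1 minus Col0, in the 12 pairs of the same condition and Exp number (points, coloured by condition) for the 24 named genes; the vertical tick is the fitted log2 difference. JUB1, AT3G22235, AT2G06995 and AT1G68620 lie below 0 in 12 of 12 pairs, and XTH31 spreads from 0.22 to 4.38.

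In salicylate defence, the hormone pathway that guards leaves against biotrophic pathogens, 9 of the 20 genes in the list fell in jub1, 11 were not called and none rose, against 4.16% called lower over all genes, and the median log2 difference was -0.59, against -0.01 over all genes. The called genes ran from signalling to output. SAG101 (-0.52 ± 0.09, adjusted p = 0.0111) and EDS1 (-0.63 ± 0.13, adjusted p = 0.0171), lipase-like proteins that act together in immune signalling, were lower in 11 of 12 pairs each (edgeR). The transcription factors WRKY18 (-0.56) and CBP60G (-0.65) and the salicylate biosynthesis genes EDS16, which encodes isochorismate synthase (-0.59), and PBS3 (-0.89) fell as well. So did BGL2, also PR2 (-1.02), PR5 (-0.93), both secreted pathogenesis-related proteins, and the receptor kinase gene FRK1 (-0.83). PR5 had a mean of 980 CPM in Col0 and 553 CPM in jub1, and BGL2 737 and 458 CPM. PR1 (-1.08, adjusted p = 0.0633, edgeR), ALD1, FMO1, SARD1, PAD4 and NPR1 were not called.

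The median difference of the salicylate list was below 0 in 10 of 12 pairs, from -1.80 (ACC, replicate 3) to 1.00 (Deacc4, replicate 1). The other positive pair was replicate 1 at Deacc2, at 0.38 with 20 of 20 genes higher. By condition the list had a median of -0.69 before cold, -0.85 at ACC, -0.41 after 2 days and -0.32 after 4 days of deacclimation, with none of its genes called in any single condition. None of the 9 was called without the Exp number, without replicate 3, or without NonA, ACC or Deacc4. In the list 1 was called with all 36 libraries, 4 with the length correction and 5 without the jub1 NonA library of replicate 1. Calls over all genes also fell in these 3 fits, from 1342 to 29, 257 and 537. With the length correction 0.725% of all genes were called lower.

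Senescence genes had negative differences in 17 of 17 cases, with a median of -0.26, and 2 of the 17 were called lower, against 4.16% of all genes. SEN1, a dark-inducible gene, had a mean of 25.9 CPM in Col0 and 13.2 CPM in jub1 (-1.12 ± 0.27, adjusted p = 0.0264, edgeR), and SAG13, a short-chain dehydrogenase, 45.9 and 28.2 CPM (-0.90 ± 0.24, adjusted p = 0.0325, edgeR). The late senescence protease SAG12 (-1.20, adjusted p = 0.236, edgeR), NAP (-0.46) and the chlorophyll breakdown gene NYE1 (-0.26) were not called. Both calls held with the length correction, under which 0.725% of all genes were called lower. Neither held without the Exp number or without the jub1 NonA library of replicate 1. In the jasmonate list 1 of 22 genes fell, a share near the 4.16% of all genes: THI2.1, an antimicrobial thionin at a mean of 0.734 CPM in Col0 and 0.0859 CPM in jub1 (-2.68 ± 0.66, adjusted p = 0.0292, edgeR). The fall of THI2.1 was not shared by all pairs. Replicates 1 and 2 differed by -4.43 to -0.81 at NonA, Deacc2 and Deacc4. Replicate 3 was higher in jub1 there, by 1.03, 0.94 and 0.68, and at ACC the pair differences were 0. In the wound and touch list, WRKY33 (-0.53) and the calmodulin-like TCH3 (-0.63) were the 2 that fell of 15, against 4.16% of all genes. Neither was called with the length correction, and 1 of the 15 was called without the jub1 NonA library of replicate 1. A further 5 genes were each the single call in their lists, where 1 of 23 or 1 of 27 is near the 4.16% of all genes. They were the outer mitochondrial membrane ATPase gene BCS1 (-0.72, 1 of 18) and the N-degron ligase gene PRT6 of the oxygen sensing pathway (-0.47, 1 of 23). The others were the abscisic acid synthesis gene AAO3 (-0.42, 1 of 27), the clock gene AT5G64170 (-0.36, 1 of 19) and the iron regulator BHLH39 (-1.78, 1 of 7, at means of 0.179 and 0.0412 CPM). None of these 5 was called with the length correction, where the differences of PRT6 (-0.01, adjusted p = 0.965, edgeR), AAO3 (-0.06, adjusted p = 0.716, edgeR) and AT5G64170 (-0.22, adjusted p = 0.132, edgeR) also shrank. Without the jub1 NonA library of replicate 1, the hypoxia and oxidative stress lists had 1 call each and the jasmonate, abscisic acid, clock and iron lists none.

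On the other side, 21 of 23 flavonoid genes had positive differences, with a median of 0.38, but 1 was called, against 2.41% called higher over all genes: FLS1, flavonol synthase, at a mean of 46.1 CPM in Col0 and 56.1 CPM in jub1 and higher in 12 of 12 pairs (0.63 ± 0.18, adjusted p = 0.0384, edgeR). The list's median was above 0 in 9 of 12 pairs, from -0.12 to 1.41, the highest at Deacc4, replicate 3. In the cold regulon 20 of 25 genes had positive differences (median 0.18) and COR15B, a cryoprotective protein of the chloroplast stroma, was called, at 414 and 603 CPM (0.64 ± 0.19, adjusted p = 0.0467, edgeR). COR15A (0.70) and the cold response regulators DREB1A (0.58), CBF1 (0.43) and CBF2 (0.40) were not called. MAF4 (0.54) and MAF5 (0.51), relatives of the floral repressor FLC, were the 2 that rose of 17 in the flowering list. In the cell wall list the 2 that rose of 20 were XTH31 and the expansin gene EXPA10 (0.55 ± 0.17, adjusted p = 0.0473, edgeR). Both counts stand against 2.41% called higher over all genes. None of the calls in the flavonoid, cold, flowering and cell wall lists held with the length correction, under which 0.534% of all genes were called higher. Without the jub1 NonA library of replicate 1 the flavonoid and cell wall lists had 1 call each and the cold and flowering lists none. The shares of 1 of 23 flavonoid and 1 of 25 cold genes are near the 2.41% called higher over all genes. The 22 photosynthesis genes had positive differences in 22 cases, with a median of 0.23, and none was called. The 13 genes of PIF and shade growth were negative in 13 cases, with a median of -0.21, and none was called. With the length correction 10 of these were negative and 3 positive, and at NonA alone 7 were negative and 6 positive. No member was called in the heat shock, sugar and proline, cell cycle, ribosome biogenesis, glucosinolate, phosphate, sulfur and nitrate, floral organ or root lists. Without the Exp number, JUB1 was the single call among all 26 lists.

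**Figure D4:**
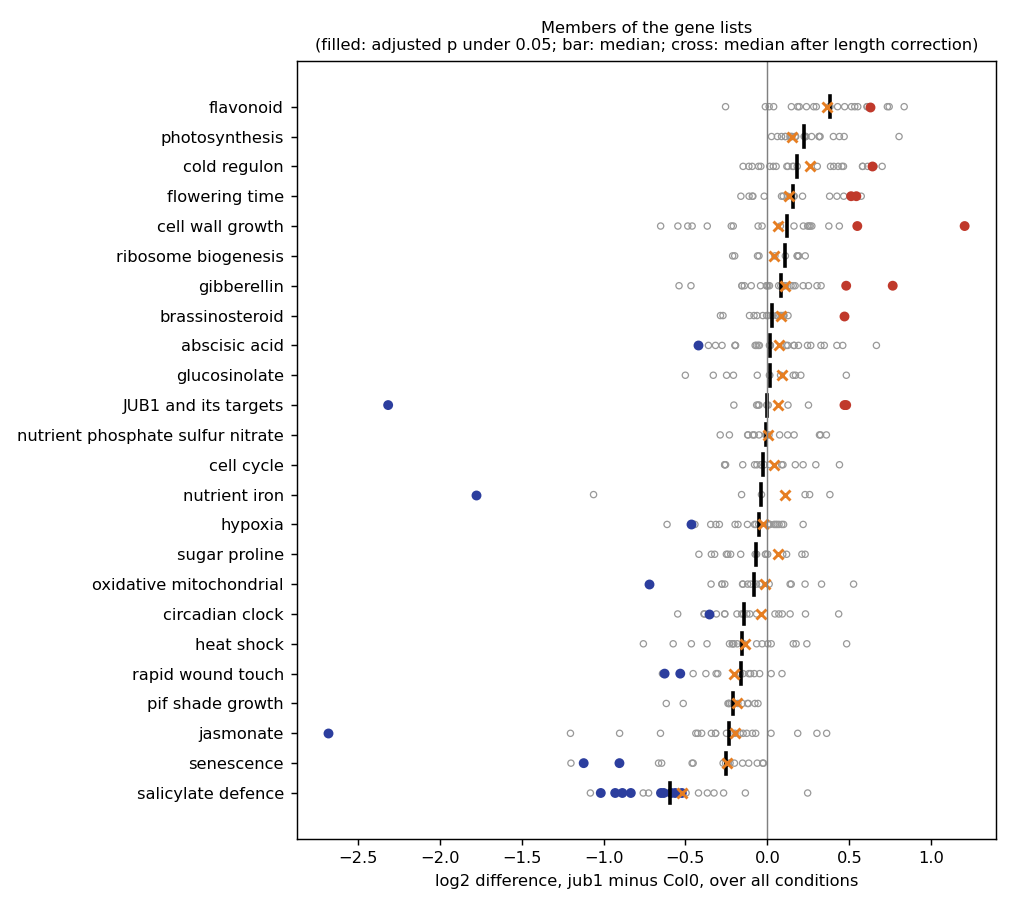
Log2 difference, jub1 minus Col0, over the 4 conditions for the members of 24 gene lists (x axis; one row a list); filled points were called at an adjusted p under 0.05 (red higher, blue lower), black bars are list medians and crosses the medians after the length correction. The salicylate list has 9 called genes and a median of -0.59, and the other lists have at most 3 called genes.

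Transcript length moved with these differences. Across 20296 genes with a known length, Spearman's rho between exonic length and the log2 difference was -0.51; genes are not independent replicates. The median exonic length was 1085 bases for genes called higher, 2964 bases for genes called lower and 1755 bases for all genes. In the shortest of 5 equal length groups 6.69% of genes were called higher and 0.689% lower; in the longest 0.148% were called higher and 13.04% lower. Within each library longer genes had higher levels, with a slope of 0.33 to 1.14 log2 CPM per doubling of length in the Col0 libraries and 0.14 to 1.04 in the jub1 libraries. Relative to the mean of the 24 libraries the slope was 0.07 ± 0.28 (SD, n = 12) in Col0 and -0.07 ± 0.27 (SD, n = 12) in jub1, and it was lower in jub1 in 9 of 12 pairs. Once the trend of each library was removed, 109 genes were called higher (0.534%) and 148 lower (0.725%), of which 233 in all were among the 1342. The median of the salicylate list moved from -0.59 to -0.52 and that of photosynthesis from 0.23 to 0.15. The part of transcript length in the differences of single genes was not tested.

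**Figure D5:**
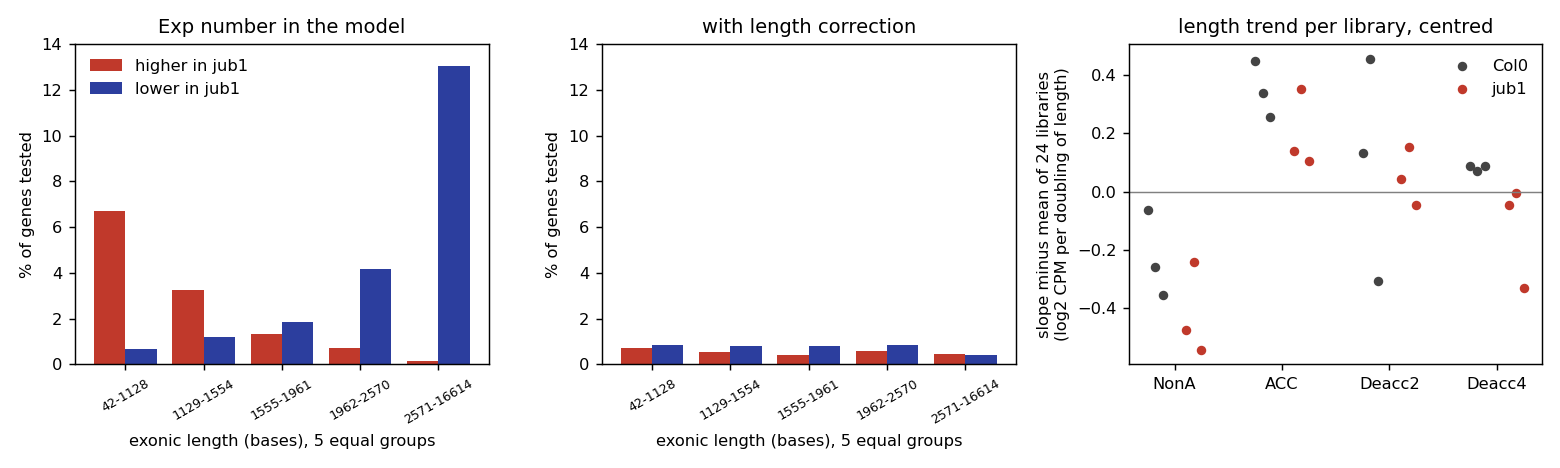
Share of genes called higher (red) or lower (blue) in jub1 in 5 equal groups by exonic length, with the Exp number in the model (left) and with the length correction added (middle), and the slope of log2 CPM on log2 length in each library, centred on the mean of the 24 libraries (right; dark grey Col0, red jub1). The share called lower climbs from 0.689% in the shortest to 13.04% in the longest group at left.

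Single conditions gave few calls. At NonA none of the genes was called (0% of 20421; 1569 at an unadjusted p under 0.05, and 6 genes by DESeq2). The 5 genes of smallest p there, none of them called, were JUB1 (-2.65), AT1G75945 (1.67), AT3G29633, an uncharacterized protein (3.50), AT4G10860 (-3.34) and AT3G29644 (0.91). At ACC none was called (0% of 20421; 590 at an unadjusted p under 0.05, and 5 by DESeq2), and AT2G06995 (-2.25) and AT3G22235 (-8.03) came nearest at an adjusted p of 0.0698 each (edgeR), followed by AT3G05955, AT1G75945 and AT2G05914. JUB1 differed by -1.16 there. At Deacc2, 3 genes were called (0.0147%), all lower: JUB1 (-2.87, adjusted p = 0.0125), AT3G22235 (-8.83, adjusted p = 0.0231) and AT2G06995 (-2.15, adjusted p = 0.0412), by edgeR. At Deacc4, 3 were called as well (0.0147%; edgeR): 1 lower (0.00490%), AT3G22235 (-8.45, adjusted p = 0.0486), and 2 higher (0.00979%), AT1G75945 (1.76, adjusted p = 0.0332) and AT2G34190, a xanthine/uracil permease (1.22, adjusted p = 0.0259). AT2G34190 was not called over the 4 conditions (0.39, adjusted p = 0.0549, edgeR). At an unadjusted p under 0.05 there were 785 genes at Deacc2 and 3016 at Deacc4 (edgeR), and DESeq2 called 8 and 58.

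No gene had a difference between the lines that was called as varying with condition (0% of 20421; edgeR, 3 interaction terms together; 193 genes at an unadjusted p under 0.05, none by DESeq2). The 5 genes of smallest p, none of them called, were AT2G34190, ABCG6, AT2G21200, CYP81G1 and AT1G04013. For JUB1 the unadjusted p of the interaction was 0.0588 and for AT3G22235 0.00767, the latter with the jub1 NonA library of replicate 1 in the fit.

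The mbf1c line gave a further reference for the named genes; its comparison with Col0 shares the Col0 libraries, so the values are set side by side only. In 1 model of all 36 libraries, jub1 differed from mbf1c in 13 of 20679 genes (0.0629%; edgeR), 5 higher (0.0242%) and 8 lower (0.0387%). JUB1 was lower in jub1 than in mbf1c (-1.71 ± 0.31, adjusted p = 0.00717), as were AT2G06995 (-2.17 ± 0.25, adjusted p = 3.23e-06) and AT3G22235 (-5.89 ± 0.92, adjusted p = 0.000817), and AT3G05955 was higher (1.40 ± 0.25, adjusted p = 0.00709), by edgeR. AT3G22235 ranged from 3.30 to 162 CPM (median 47.3) in mbf1c, and AT2G06995 from 1.96 to 13.6 CPM. The other pattern was that of AT1G75945, which was higher than Col0 by 1.66 in mbf1c (adjusted p = 0.000548, edgeR) and by 1.43 in jub1, with a difference between the mutants of -0.24 ± 0.24 (adjusted p = 1.00, edgeR). AT3G29644 was higher than Col0 by 0.68 in mbf1c and by 0.67 in jub1, and the mutants differed by -0.00 ± 0.11. AT2G05914 was lower than Col0 by a log2 difference of -1.43 in mbf1c (adjusted p = 0.0364, edgeR) and -2.59 in jub1, and the mutants differed by -1.16 ± 0.34 (adjusted p = 0.618, edgeR). GA3OX1 differed between jub1 and mbf1c by 0.33 ± 0.13 and DWF4 by 0.14 ± 0.15, neither of them called.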

How the data were processed

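Total RNA of whole rosettes was extracted by a Trizol method and treated with DNase, per the labels' protocols. The authors deposited raw counts per gene for each library, 34262 genes, unnormalised. The submitters' processing notes name the aligner STAR 2.6.0c, the build TAIR10 and DESeq2; which annotation release was counted is not given there. The unstranded count column was used, since the first strand column held 50.5% to 52.0% of stranded counts. Reads in genes were 88.4% to 92.9%, multimapping 2.67% to 5.06% and ambiguous 3.13% to 5.48% of reads; those outside single genes entered no library size. No library copied another (lowest chi-square per degree of freedom within a group 16.9). Names and exonic lengths came from the RefSeq annotation of TAIR10.1, which named 32548 genes.

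Genes were kept by filterByExpr, scaled by TMM and tested with edgeR 4.0.16 as additive terms for condition, Exp number and line, with Benjamini-Hochberg adjustment at 0.05. Single conditions and the interaction used a term per group plus the Exp number. Levels are CPM. Alternatives were RLE, DESeq2, no filter, all 36 libraries, the first strand column, a loess length correction, no Exp number, and replicates, conditions or libraries left out. The test was checked on simulated data with known changes. These were drawn from the fitted model itself, so the check cannot show how the test behaves where the real libraries depart from that model. Copies were sought with blastn 2.17.0 (over 95% identity over at least 200 bases).

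The comparison, the gene lists and the naming rule were chosen with earlier results of these data known. The rule took the 12 largest called differences each way, where 1 line averaged 2 CPM or more. It also took JUB1 and the list of genes linked to it, 5 genes a condition, 6 for the interaction and 4 a list. Exp numbers were kept as a term because the comparison is defined with them. Within a condition, deviations of same-number libraries correlated over 0.1 in 7 of 12 pairs, and in 3 of 3 only at Deacc2.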

Additional observations from a re-analysis of the deposited data

How the results depend on the processing

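The direction of the 1342 differences was the same without the Exp number, under RLE, with no filter, with all 36 libraries and by DESeq2, and in 1321 of 1342 with the length correction, but their number was not stable. Without the replicate block 13 genes were called, with all 36 libraries 29, with the length correction 257 (20 when the block was also left out), with a block within each condition 534, with the average of condition contrasts 749, and by DESeq2 2603. Without NonA 12 were called, without ACC 30 and without Deacc4 33. Leaving out Exp number 1, 2 or 3 gave 123, 1603 and 26 calls, and single libraries 122 to 3556. Over 1.5-fold moves came from Col0 NonA 1 (122) and 3 (648), ACC 1 (356), 2 (2338) and 3 (628), Deacc2 2 (488) and 3 (3556) and Deacc4 3 (405), and from jub1 NonA 1 (537) and 3 (374), ACC 1 (515) and 3 (874), Deacc2 1 (780) and 2 (404), and Deacc4 1 (455) and 3 (138). The cause was not tested.

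At NonA no filter gave 2 calls, the length correction 2 with or without the block, DESeq2 6, and leaving out replicates or libraries 0 to 4. At ACC the first strand column gave 5, the length correction 3, DESeq2 5 and leave-outs 0 to 2. At Deacc2 all 36 libraries gave 0, DESeq2 8 and leave-outs 0 to 3. At Deacc4 no block gave 0, all 36 libraries 1, the length correction 5, DESeq2 58 and leave-outs 0 to 127. Against mbf1c leave-outs gave 8 to 590. The interaction had 0 calls in each fit.

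The Exp numbers paired the libraries unevenly. At NonA, ACC and Deacc4 a same-number correlation between the lines fell to 0.1 or below, while 1, 2 and 1 pairs there were over 0.1. Among any 2 libraries of the same number, 48 of 84 correlations were over 0.1 (median 0.17). Of 24 libraries, 14 correlated best with their own number. The fits without the block for jub1 versus mbf1c, the length correction without it and the set of 10 genes were chosen after seeing the data. Depth limits genes under 1 CPM most.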

Other observations

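Grouped by words in their annotation, a grouping chosen after the values were seen, further gene classes were counted. Of 34 genes annotated as disease resistance proteins, the intracellular immune receptors, 18 were called lower in jub1 (52.9%, against 4.16% of all genes), with 33 of 34 differences negative and a median of -0.44; with the length correction none was called and the median was -0.13. Their median exonic length was 3895 bases. Of 32 cysteine-rich receptor-like kinases, which sit in the plasma membrane, 15 were called lower (46.9%, median -0.48), and 7 with the length correction (median -0.36). Of 15 glutamate receptor genes, 5 were called lower (33.3%), and 3 with the length correction. Over all genes 4.16% were called lower, and 0.725% with the length correction. Of 206 genes with receptor kinase wording, which can overlap the cysteine-rich class, 30 were called lower (14.6%, median -0.17), but with the length correction 2 were lower and 2 higher and the median was 0.01. Of 253 pentatricopeptide repeat genes, which serve organelle RNAs, 201 had negative differences, 2 were called lower and 1 higher. Of 313 ribosomal protein genes, 73 were called higher (23.3%, against 2.41% of all genes) and 1 lower (median 0.23, median exonic length 1029 bases), and 13 higher with the length correction. Of 50 photosystem genes 9 were called higher (18%) and 1 with the length correction, and of 15 thylakoid genes 4 (26.7%) and 2. Over all genes 2.41% were called higher, and 0.534% with the length correction. Without the Exp number 1 thylakoid gene was called and none in the other classes.

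Of the 20 tested genes nearest to JUB1, 10 on each side, ML2 (-0.54, adjusted p = 0.0138, edgeR), an RNA-binding protein gene, was called lower and AT2G42975 (0.39, adjusted p = 0.0272, edgeR) higher, 2 of 20 against 6.57% of all genes. PIF4, the next tested gene after JUB1, was not called.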
